A study of Mus musculus with 13 samples.

Results

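The genes described here are 10 components of cAMP and protein kinase A signalling: the adenylyl cyclase Adcy9, the phosphodiesterases Pde4a, Pde4b and Pde4d, the kinase subunits Prkaca and Prkar1a, the anchoring protein Akap12, the transcription factors Creb1 and Crem, and the kinase Sik1. They were taken by symbol from a read count table of 54532 genes in mouse liver, for their place downstream of the prostaglandin E2 receptors EP2 and EP4. All 10 symbols were found, and all 10 were among the 14280 genes that passed the filter on low counts. The livers came from wild-type C57 BL6 mice aged 8 weeks, in 4 groups. Saline livers (n = 3) were the untreated reference. GalN/LPS livers (n = 3) came from mice injected intraperitoneally with D-galactosamine at 500 mg/kg and lipopolysaccharide at 5 µg/kg, a hepatocyte-sensitising amino sugar and a bacterial endotoxin that together cause acute liver injury. Pretreated livers (n = 4) received dmPGE2 at 300 µg/kg 1 h before the same GalN/LPS injection. The dmPGE2 livers (n = 3) received the same dose of dmPGE2, a dimethylated and longer-lived analogue of prostaglandin E2, without GalN/LPS. Collection was 6 h after GalN/LPS. The titles of the saline and dmPGE2 libraries also carry 6 h, but the interval from dmPGE2 alone to collection is not stated. The labels do not state that each library is a separate animal, so p-values may measure only the spread between these samples.

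Prostaglandin E2 has several receptors. Of these, EP2 and EP4 are coupled to the stimulatory G protein, which switches on adenylyl cyclase and raises cAMP. The messenger frees the catalytic subunits of protein kinase A from their regulatory subunits, phosphodiesterases degrade it, and A-kinase anchoring proteins hold the kinase at particular sites in the cell. Protein kinase A phosphorylates CREB, which binds cAMP response elements in promoters, and it restrains salt-inducible kinases, which otherwise keep CREB coactivators out of the nucleus. In liver the pathway is best known for the fasting response, in which glucagon drives gluconeogenic genes, and in immune cells it dampens the release of inflammatory cytokines.

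The promoters of the members were searched for cAMP response elements, the sites that CREB binds. Windows from 250 bases before to 50 bases after an annotated RefSeq start (GRCm38.p6) were matched for 7 of the 10 genes, in 18 windows. Akap12, Crem and Sik1 had no window, so the known cAMP targets Crem and Sik1 were not searched. The full palindromic cAMP response element, TGACGTCA, was found in 2 of these 18 windows (11.1%) and in 1.79% of all 32851 mouse promoter windows. Both windows belonged to Prkar1a, overlapped each other and shared the same element. The shorter core TGACG, searched on both strands and contained in the full element, was found in 7 of 18 member windows (38.9%), which fell in 5 genes, and in 20.8% of all windows. The lines below give the bases upstream of an annotated start for each of 4 members. They run 5′ to 3′ on the strand of the gene, with the matched letters in capitals. None of these 4 is in the list of textbook CREB targets used below. Pde4b, which is in that list, also held a core and is not printed. The Prkar1a stretch (chr11:109650699-109650920, plus strand) is cut short of an annotated exon. It holds the full element beginning 49 bases before its annotated start and a core at 187 bases. The other stretches are Prkaca (chr8:83972728-83972977, plus strand), with cores at 120 and 6 bases, Pde4a (chr9:21183851-21184100, plus strand), with a core at 50 bases, and Adcy9 (chr16:4420499-4420748, minus strand), with a core at 24 bases. Only windows with a match are printed. Prkar1a, Prkaca and Pde4a also had windows with 0 matches, among them the one at the Pde4a gene start (chr9:21165464-21165763). The printed Prkar1a and Pde4a starts lie inside the gene spans. Capitals reading CGTCA are the core on the opposite strand.
Prkar1a: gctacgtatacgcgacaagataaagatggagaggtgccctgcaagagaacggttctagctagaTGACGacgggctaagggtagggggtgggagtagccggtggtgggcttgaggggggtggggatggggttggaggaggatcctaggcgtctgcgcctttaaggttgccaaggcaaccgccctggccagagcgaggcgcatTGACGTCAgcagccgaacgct
Prkaca: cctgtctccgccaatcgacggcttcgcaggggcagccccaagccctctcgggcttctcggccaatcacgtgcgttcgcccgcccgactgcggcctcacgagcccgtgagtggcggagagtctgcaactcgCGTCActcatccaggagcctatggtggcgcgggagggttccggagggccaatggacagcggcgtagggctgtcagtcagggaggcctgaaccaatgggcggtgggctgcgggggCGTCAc
Pde4a: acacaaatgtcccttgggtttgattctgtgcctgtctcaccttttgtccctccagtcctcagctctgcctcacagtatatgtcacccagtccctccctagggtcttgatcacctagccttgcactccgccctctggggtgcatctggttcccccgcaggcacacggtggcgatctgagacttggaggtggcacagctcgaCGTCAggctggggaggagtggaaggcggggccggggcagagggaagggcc
Adcy9: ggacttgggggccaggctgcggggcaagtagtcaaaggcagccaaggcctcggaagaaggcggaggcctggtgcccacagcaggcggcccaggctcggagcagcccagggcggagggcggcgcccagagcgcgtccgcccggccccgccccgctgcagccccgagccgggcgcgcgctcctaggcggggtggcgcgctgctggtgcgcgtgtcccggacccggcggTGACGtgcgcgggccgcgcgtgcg
A match describes the letters only. These 4 genes did not share a direction below: after pretreatment Prkaca and Adcy9 were higher than with GalN/LPS alone, Pde4a was lower, and Prkar1a did not pass the test.

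Total counts per library lay between 14829838 and 20777809. Levels are given as CPM, read counts scaled to a common library size after TMM scaling, a correction for differences in library composition. The TMM factors were 0.683 to 0.830 in pretreated livers and 0.904 to 1.28 in the other groups, so the choice of scaling bears on pretreated livers most. With library totals in place of TMM, the median log2 fold change over all genes in pretreated against GalN/LPS livers moved from -0.10 to -0.61, and the share of called genes that were higher moved from 44.7% to 8.3%. Fold changes and p-values below are from the edgeR quasi-likelihood test fitted on all 13 libraries, two-sided, with Benjamini-Hochberg adjustment over all 14280 genes and a threshold of 0.05. The comparisons share control samples and are not independent of each other. In these whole-tissue samples fewer cells of a type and less RNA per cell cannot be told apart.

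**Figure D1:**
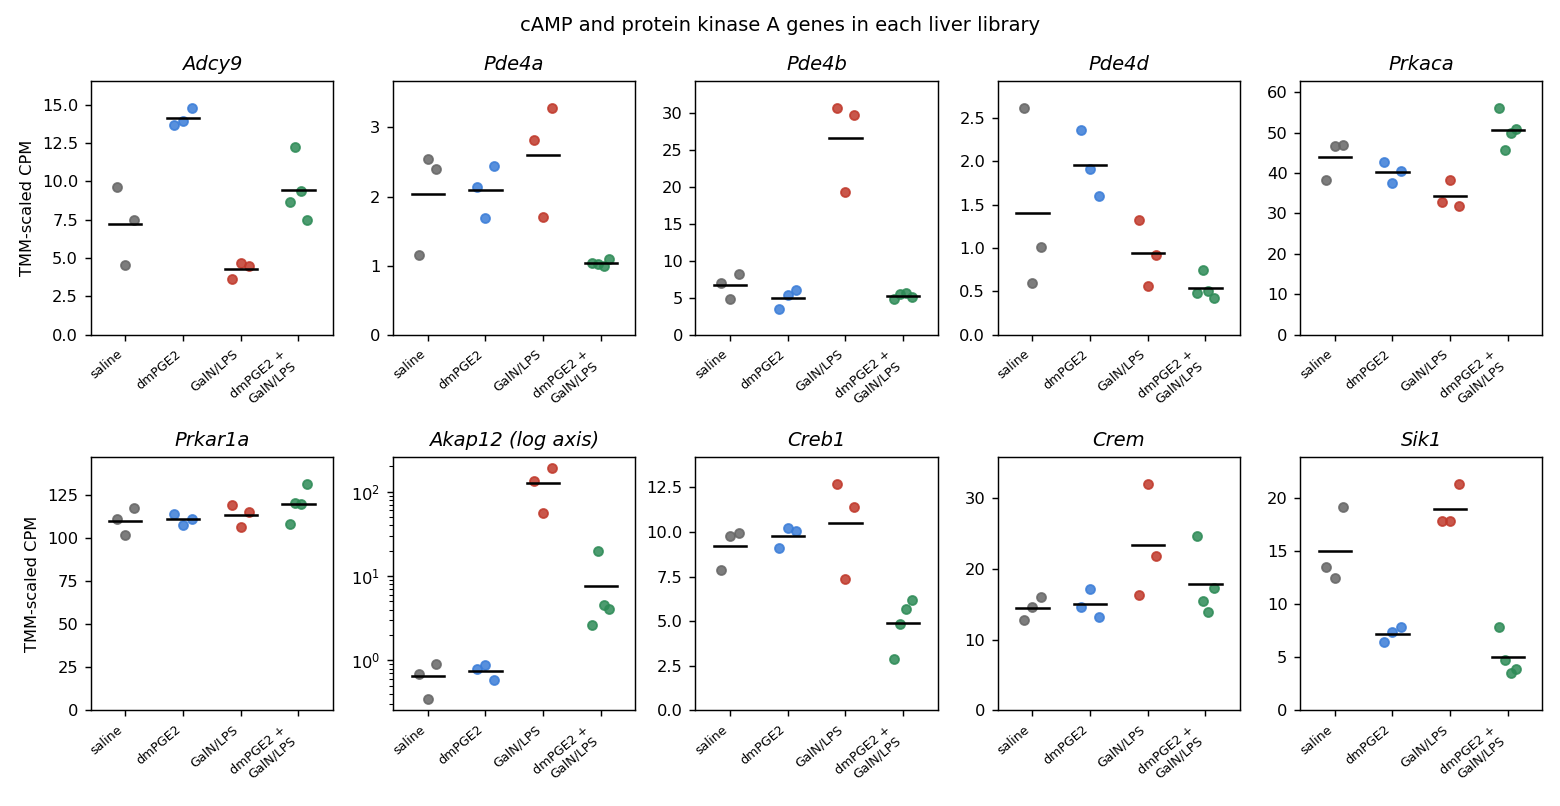
TMM-scaled CPM (y axis, from 0, with a log axis for Akap12) of each gene in each of the 13 libraries, by group (x axis). Each point is a library and each bar the mean of its group. Akap12 and Pde4b were high with GalN/LPS and lower after pretreatment, Sik1 was low in both groups given dmPGE2, and Adcy9 was highest with dmPGE2 alone.

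In GalN/LPS against saline livers, 3 of the 10 genes were higher (Akap12, Pde4b and Crem), 2 were lower (Adcy9 and Prkaca) and 5 did not pass. Over all genes 27.4% were called higher and 25.6% lower, or 52.9% in either direction, so the number of members called was close to the background. In pretreated against GalN/LPS livers, 5 members were lower (Akap12, Pde4b, Sik1, Pde4a and Creb1) and 2 were higher (Adcy9 and Prkaca), beside a background of 30.1% lower and 24.4% higher, or 54.5% in either direction. The median log2 fold change of the members was -0.95 there, and that of all genes -0.10. In dmPGE2 against saline livers none of the 10 passed, and the background was 0%, since edgeR called 0 of 14280 genes. At an unadjusted p under 0.05 there were 1990 genes, 2 of them members (Sik1 and Adcy9), and DESeq2 called 277 genes, which included the same 2 members. In pretreated against saline livers 1 member was higher (Akap12) and 4 were lower (Sik1, Creb1, Pde4a and Pde4d), beside 34.8% and 30.2% of all genes, or 65% in either direction.

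**Figure D2:**
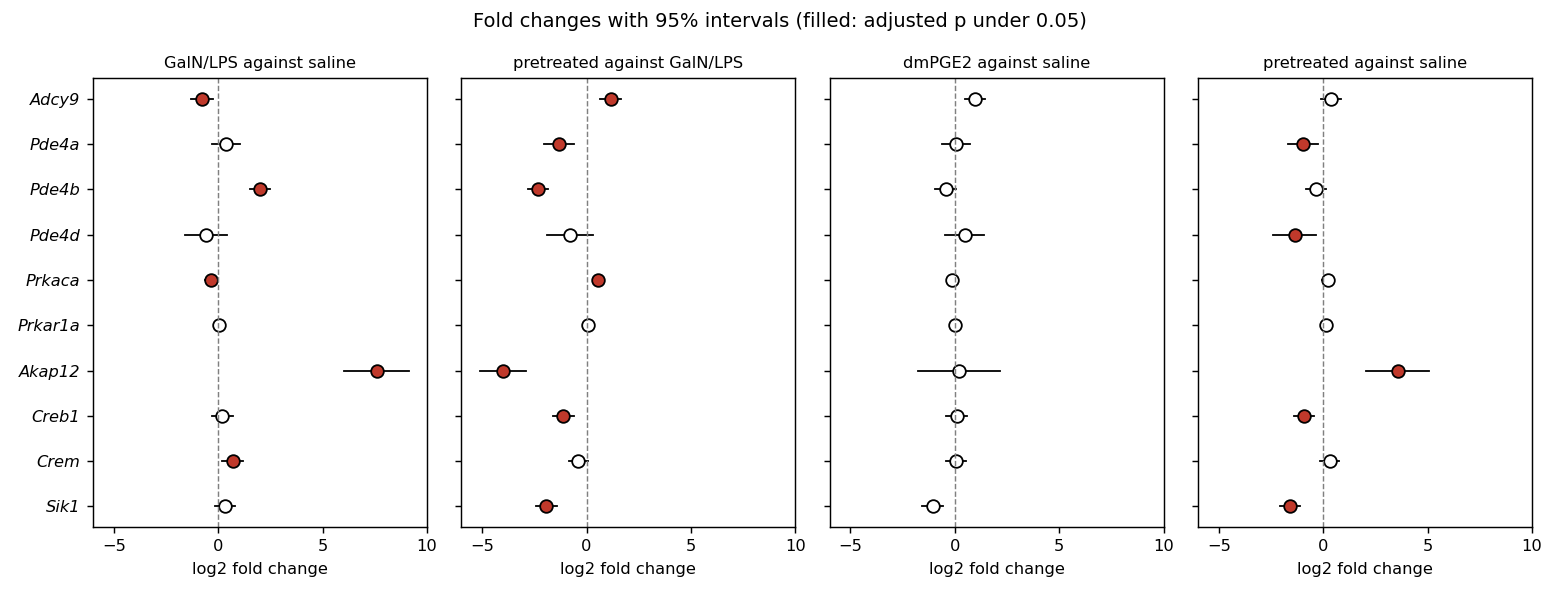
Log2 fold change (x axis) of each of the 10 genes (y axis) in 4 comparisons, with 95% intervals as lines. Filled points passed an adjusted p of 0.05 by edgeR. With dmPGE2 alone no point is filled, and the Sik1 and Adcy9 intervals lie on opposite sides of 0.

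Adcy9, an adenylyl cyclase that makes cAMP (ENSMUSG00000005580, chr16:4287529-4420498, minus strand, GRCm38), was highest with dmPGE2 alone and lowest with GalN/LPS. Its CPM was 9.63, 4.53 and 7.49 in the saline libraries, 13.7, 13.9 and 14.8 with dmPGE2, 3.61, 4.66 and 4.51 with GalN/LPS, and 8.65, 12.2, 9.34 and 7.44 after pretreatment. The dmPGE2 libraries lay above all others, and the pretreated libraries lay above all GalN/LPS libraries. Adcy9 was 2.22-fold higher in pretreated than in GalN/LPS livers (log2 fold change 1.15 ± 0.24, SE, edgeR adjusted p = 0.000976). It was lower in GalN/LPS than in saline livers by a log2 fold change of -0.76 ± 0.24 (adjusted p = 0.0153), with overlapping ranges. This fall was not past the threshold without saline 1 (-0.51, adjusted p = 0.104) or without GalN/LPS 1 (-0.66, adjusted p = 0.061). With dmPGE2 alone the log2 fold change against saline was 0.97 ± 0.23 (1.95-fold, unadjusted p = 0.000748, edgeR adjusted p = 0.0891), and every dmPGE2 library exceeded every saline library. DESeq2 gave 0.96 for that difference with an adjusted p of 0.0107, and edgeR without the low-count filter gave 0.99 with 0.000553. With each library left out in turn it ran from 0.72 to 1.23, with edgeR adjusted p from 0.0768 to 0.356. The Adcy9 response to dmPGE2 with GalN/LPS exceeded that without it by 0.18 ± 0.33 on the log2 scale (interval -0.51 to 0.88, adjusted p = 0.684), so no difference between the settings was detected, within that interval. Pretreated livers were at 9.42 ± 2.03 CPM (SD, n = 4) and saline livers at 7.22 ± 2.56 (SD, n = 3), a log2 fold change of 0.38 that did not pass (interval -0.09 to 0.86, adjusted p = 0.141) but did without saline 1 (0.65, adjusted p = 0.0277).

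Pde4b, a cAMP-specific phosphodiesterase prominent in leukocytes and known to rise with endotoxin (ENSMUSG00000028525, chr4:102087543-102607259, plus strand), rose with GalN/LPS and was near the saline level after pretreatment. Its CPM was 6.93, 4.88 and 8.17 in saline, 30.6, 19.2 and 29.7 in GalN/LPS, 4.84, 5.47, 5.67 and 5.16 in pretreated, and 3.52, 5.34 and 6.03 in dmPGE2 libraries. All 3 GalN/LPS libraries stood above all 10 others. The rise was 3.98-fold (log2 fold change 1.99 ± 0.23, edgeR adjusted p = 2.66e-06). Pretreated livers were 5.01-fold below GalN/LPS livers (-2.33 ± 0.22, adjusted p = 3.08e-06), the 170th lowest fold change of 14280 genes. Against saline, pretreated livers differed by -0.33 ± 0.23 (interval -0.81 to 0.14, adjusted p = 0.204). That difference passed with library totals (-1.01, adjusted p = 0.00318) and without the low-count filter (-0.50, adjusted p = 0.0443). Against saline, dmPGE2 livers differed by -0.43 ± 0.24 (adjusted p = 0.433). The effect of dmPGE2 was more negative in injured than in uninjured livers by -1.90 ± 0.32 (adjusted p = 0.00103).

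Pde4a, a second member of this phosphodiesterase family (ENSMUSG00000032177, chr9:21165714-21213248, plus strand), did not pass in GalN/LPS livers and fell after pretreatment. Its CPM was 1.15, 2.54 and 2.40 in saline, 2.81, 1.70 and 3.28 in GalN/LPS, 1.03, 1.02, 1.00 and 1.10 in pretreated, and 2.14, 1.68 and 2.45 in dmPGE2 libraries. The 4 pretreated libraries were the 4 lowest of the 13, saline 1 being close to them. Their values rest on 13, 15, 12 and 13 counts, beside 25 to 64 in the other libraries. The log2 fold change was 0.37 ± 0.32 with GalN/LPS (adjusted p = 0.362) and -1.32 ± 0.33 in pretreated against GalN/LPS livers (edgeR adjusted p = 0.00367). Against saline, pretreated livers were lower by -0.96 ± 0.33 (adjusted p = 0.0194), a call lost without saline 2 (-0.76, adjusted p = 0.0896) or saline 3 (-0.81, adjusted p = 0.0748).

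Pde4d, another phosphodiesterase of the family (ENSMUSG00000021699, chr13:108449948-109953461, plus strand), had low counts, 5 to 63 per library. On the same strand its gene span overlaps the processed pseudogene Rps3a3, which averaged 20.54 counts beside 23.38 for Pde4d. Overlap of exons was not examined, so whether the 2 genes compete for reads is not known. Mean CPM was 1.96 ± 0.381 with dmPGE2 alone, 1.41 ± 1.07 with saline, 0.939 ± 0.380 with GalN/LPS and 0.538 ± 0.146 after pretreatment (SD). Only pretreated against saline passed, at -1.37 ± 0.49 (edgeR adjusted p = 0.0217). Without saline 1, the highest saline library, this was -0.56 (adjusted p = 0.315), and without pretreated 4 it was -1.27 (adjusted p = 0.0521). Of the 3 phosphodiesterases Pde4b passed with GalN/LPS and the other two did not, and differences among the genes were not tested. After pretreatment Pde4a and Pde4b were both below GalN/LPS, and Pde4d gave -0.79 (interval -1.88 to 0.29, adjusted p = 0.199).

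Prkaca, the main catalytic subunit of protein kinase A (ENSMUSG00000005469, chr8:83972993-83996443, plus strand), was lowest with GalN/LPS and higher after pretreatment. Its CPM was 38.2, 46.6 and 46.9 in saline, 32.9, 38.4 and 32.0 in GalN/LPS, 56.0, 45.7, 49.96 and 50.9 in pretreated, and 42.8, 37.6 and 40.5 in dmPGE2 libraries. The pretreated libraries lay above all GalN/LPS libraries, while saline and GalN/LPS overlapped by a small margin. Pretreated livers were higher than GalN/LPS livers by a log2 fold change of 0.56 ± 0.12 (edgeR adjusted p = 0.00142). With library totals in place of TMM this was 0.05 (adjusted p = 0.754), so the rise was seen with TMM and not with library totals. Adcy9 stayed higher under that scaling (0.66, adjusted p = 0.0456). The fall in GalN/LPS against saline was -0.35 ± 0.13 (adjusted p = 0.0284), and it was not past the threshold without saline 2 (-0.32, adjusted p = 0.0827), saline 3 (-0.31, adjusted p = 0.0921) or GalN/LPS 1 (-0.32, adjusted p = 0.0809).

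Prkar1a, the type I regulatory subunit that holds the kinase inactive (ENSMUSG00000020612, chr11:109649405-109669656, plus strand), varied little. Its CPM ran from 101.6 to 131.5 over all 13 libraries, with means of 110.2 ± 8.08 with saline, 111.0 ± 3.16 with dmPGE2, 113.5 ± 6.66 with GalN/LPS and 120.1 ± 9.46 after pretreatment. No comparison passed by edgeR with TMM. The interval of the GalN/LPS effect was -0.20 to 0.29 on the log2 scale (adjusted p = 0.78). In pretreated against GalN/LPS livers the log2 fold change was 0.08 with TMM (interval -0.15 to 0.31, adjusted p = 0.55) and -0.44 with library totals (adjusted p = 0.0114), so its direction turned with the scaling.

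Akap12, a scaffold that anchors protein kinase A and is expressed in endothelial and mesenchymal cells (ENSMUSG00000038587, chr10:4266380-4359470, plus strand), moved farthest of the 10. Its CPM was 0.688, 0.349 and 0.913 in saline, 134.6, 55.3 and 189.8 in GalN/LPS, 2.62, 19.6, 4.504 and 4.06 in pretreated, and 0.787, 0.871 and 0.591 in dmPGE2 libraries. The saline values rest on 15, 7 and 19 counts and the GalN/LPS values on 2535, 877 and 3705. Saline and dmPGE2 overlapped, pretreated livers lay above both, and GalN/LPS livers lay above every pretreated library. The rise with GalN/LPS was 191.9-fold (log2 fold change 7.58 ± 0.74, edgeR adjusted p = 4.48e-07), the 45th highest of 14280 genes. Pretreated livers were 16.1-fold below GalN/LPS livers (-4.01 ± 0.52, adjusted p = 3.81e-05), the 8th lowest of all genes. They stayed above saline livers by 3.57 ± 0.71 on the log2 scale (adjusted p = 0.000403). Pretreated 2 held several times the Akap12 of the other pretreated libraries. Without it the fold changes were -5.09 against GalN/LPS and 2.50 against saline. With dmPGE2 alone the log2 fold change was 0.18 ± 0.93 (adjusted p = 0.953), and the effect of dmPGE2 was more negative in injured than in uninjured livers by -4.19 ± 1.08 (adjusted p = 0.00926), or -5.27 without pretreated 2.

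Markers of several other cell types moved with Akap12 over the groups. The summed CPM of 7 sinusoidal endothelial markers was 65.2 to 74.4 with saline, 71.9 to 91.7 with dmPGE2, 425.0 to 542.9 with GalN/LPS and 123.6 to 257.3 after pretreatment. By edgeR all 7 rose with GalN/LPS against saline, and all 7 fell with pretreatment against GalN/LPS alone. Over all genes 27.4% were higher in the first comparison and 30.1% lower in the second. The 7 neutrophil markers did the same. Of 7 stellate cell and fibroblast markers 6 rose and 6 fell, and of 7 Kupffer cell and macrophage markers 6 rose and 7 fell. The 5 hepatocyte markers did not pass with GalN/LPS, and all 5 were higher after pretreatment. Of 10 marker lists, 8 had their lowest GalN/LPS sum in GalN/LPS 2, the lowest of its group in Akap12. Pretreated 2, the highest of its group in Akap12, had the highest pretreated sum in 4 lists: endothelial (257.3), stellate cell and fibroblast (274.4), monocyte (174.0) and cholangiocyte (102.5). It had the lowest pretreated sum in others, such as neutrophil (231.6). Endothelial and stellate sums were highest in GalN/LPS 1 (542.9 and 615.4), while Akap12 and the monocyte sum (521.1) were highest in GalN/LPS 3. Over groups the 7 neutrophil markers spanned 3.74 to 12.5 with saline, 4.35 to 8.24 with dmPGE2, 592.7 to 791.6 with GalN/LPS and 231.6 to 372.4 after pretreatment, and the defining neutrophil marker Ly6g had 0 counts in dmPGE2 and 1 in saline livers. The 7 Kupffer cell and macrophage markers spanned 94.6 to 121.9, 117.6 to 159.1, 495.4 to 773.6 and 215.9 to 336.4 in the same order. The 5 hepatocyte markers, which were abundant in every library, spanned 78660 to 92830, 59500 to 66020, 83190 to 117900 and 124500 to 200800. The part of these cell types in the changes of Akap12, Pde4b or the other members was not tested.

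**Figure D3:**
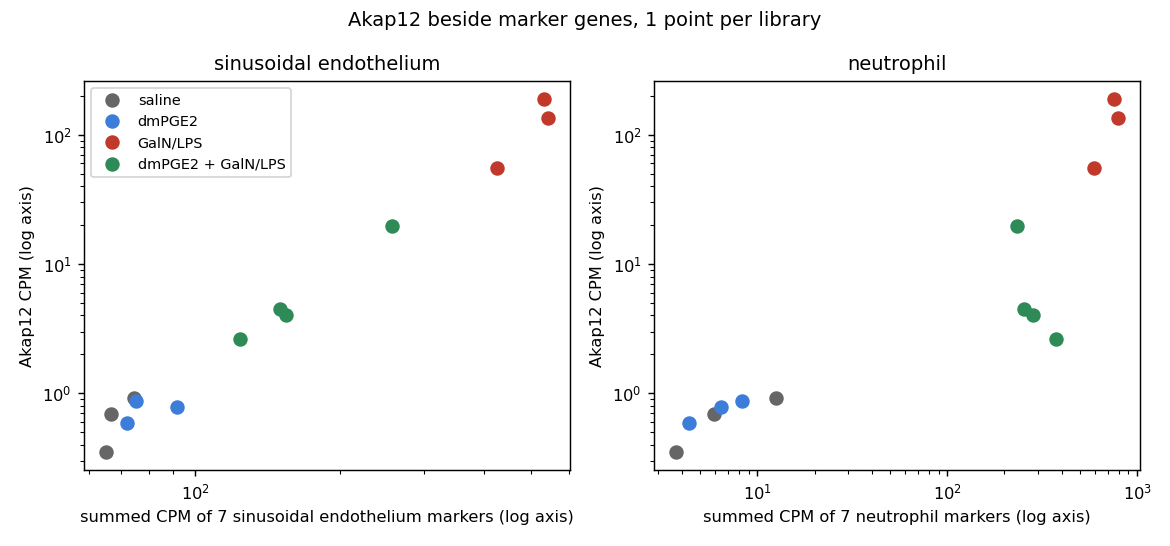
Akap12 CPM (y axis) against the summed CPM of 7 sinusoidal endothelial markers (left) or 7 neutrophil markers (right), on log axes, with 1 point per library coloured by group. In both panels the GalN/LPS libraries lie highest on both axes and the pretreated libraries lie between them and the uninjured ones.

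Creb1, the transcription factor phosphorylated by protein kinase A (ENSMUSG00000025958, chr1:64532645-64604548, plus strand), was lowest in pretreated livers. Its CPM was 7.89, 9.77 and 9.94 in saline, 12.7, 7.38 and 11.4 in GalN/LPS, 2.86, 4.85, 5.67 and 6.17 in pretreated, and 9.07, 10.2 and 10.04 in dmPGE2 libraries. All 4 pretreated libraries lay below the other 9. The log2 fold change of pretreated livers was -1.11 ± 0.23 against GalN/LPS (edgeR adjusted p = 0.00111) and -0.91 ± 0.23 against saline (adjusted p = 0.00255). GalN/LPS alone gave 0.19 ± 0.23 (adjusted p = 0.519) and dmPGE2 alone 0.09 ± 0.23 (adjusted p = 0.904). The effect of dmPGE2 differed between injured and uninjured livers by -1.19 ± 0.33 (adjusted p = 0.0129).

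Crem, a related factor that yields both activators and the inducible repressor ICER (ENSMUSG00000063889, chr18:3266048-3337748, minus strand), was higher in GalN/LPS livers. Mean CPM was 14.45 ± 1.68 with saline, 14.97 ± 2.05 with dmPGE2, 23.3 ± 7.98 with GalN/LPS and 17.8 ± 4.74 after pretreatment, and gene counts do not separate the isoforms. GalN/LPS 2 was the highest of the 13 libraries, at 32.0 CPM. The log2 fold change with GalN/LPS was 0.69 ± 0.23 (edgeR adjusted p = 0.0213). It was not past the threshold without GalN/LPS 2 (0.39, adjusted p = 0.165), GalN/LPS 3 (0.62, adjusted p = 0.0653), saline 1 (0.59, adjusted p = 0.0853) or saline 2 (0.68, adjusted p = 0.0516). In pretreated against GalN/LPS livers it was -0.39 ± 0.22 (interval -0.85 to 0.08, adjusted p = 0.146), and it passed without GalN/LPS 1 (-0.59, adjusted p = 0.0407) or pretreated 1 (-0.58, adjusted p = 0.0293), while without GalN/LPS 2 it was -0.083 (adjusted p = 0.759). With library totals the GalN/LPS rise was 0.49 (adjusted p = 0.063) and the difference after pretreatment -0.87 (adjusted p = 0.0016).

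Sik1, a salt-inducible kinase that is itself transcribed in response to cAMP and feeds back on CREB coactivators (ENSMUSG00000024042, chr17:31844248-31855792, minus strand), was low in both groups that received dmPGE2. Its CPM was 13.5, 12.5 and 19.2 in saline, 17.8, 17.8 and 21.4 in GalN/LPS, 7.86, 4.78, 3.50 and 3.89 in pretreated, and 6.45, 7.43 and 7.85 in dmPGE2 libraries. All 7 libraries with dmPGE2 lay below all 6 without it. Pretreated livers were 3.79-fold below GalN/LPS livers (log2 fold change -1.92 ± 0.23, edgeR adjusted p = 2.03e-05) and below saline livers by -1.58 ± 0.23 (adjusted p = 2.17e-05). With dmPGE2 alone the log2 fold change was -1.06 ± 0.24 (interval -1.56 to -0.55, unadjusted p = 0.00042, edgeR adjusted p = 0.0832). DESeq2 gave -1.06 with an adjusted p of 0.00608, edgeR without the low-count filter -1.03 with 0.000111, and edgeR without pretreated 1 gave an adjusted p of 0.043. Over all libraries left out in turn the value ran from -1.17 to -0.84, with edgeR adjusted p from 0.043 to 0.286. GalN/LPS alone gave 0.34 ± 0.23 (adjusted p = 0.237). The Sik1 response to dmPGE2 with GalN/LPS, minus that without it, was -0.86 ± 0.33 (adjusted p = 0.0531), and it passed by DESeq2 (-0.92, adjusted p = 0.0319) and with RLE factors (-0.91, adjusted p = 0.0458). It also passed with library totals (-1.45, adjusted p = 0.00598) and without the low-count filter (-0.91, adjusted p = 0.0102). Of the fits with a library left out, it passed without saline 3 (-1.06, adjusted p = 0.0294) or pretreated 1 (-1.16, adjusted p = 0.00589). Over all such fits the adjusted p by edgeR ran from 0.00589 to 0.125.

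Of the 10 members, libraries of both groups did not overlap for 3 in GalN/LPS against saline, beside 59.7% of all genes, and for 7 in pretreated against GalN/LPS, beside 50.4%. They did not overlap for 2 in dmPGE2 against saline, beside 26.3%, and for 4 in pretreated against saline, beside 61.8%. A test of whether the effect of dmPGE2 differed between injured and uninjured livers called 4 members lower (Akap12, Pde4b, Pde4a and Creb1) and 1 higher (Prkaca), beside 19.6% and 15.4% of all genes, or 35% in either direction. For Prkaca that difference was 0.68 ± 0.17 (edgeR adjusted p = 0.00908), and for Pde4a -1.38 ± 0.46 (adjusted p = 0.0321). The Pde4a difference was not past the threshold when saline 1, GalN/LPS 1, GalN/LPS 3, dmPGE2 1 or dmPGE2 3 was left out (-1.35 to -1.08, adjusted p = 0.065 to 0.0903). The Prkaca difference was 0.10 with library totals (adjusted p = 0.693), and without saline 1 the Pde4d difference passed (-2.06, adjusted p = 0.0217).

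Levels of different genes are compared here per length, as the deposited FPKM (fragments scaled by gene length and library size). In saline livers Prkar1a (25.9 ± 1.74, SD, n = 3) and Prkaca (17.9 ± 1.97) were far above Sik1 (3.39 ± 0.781), Crem (2.49 ± 0.275) and Adcy9 (1.41 ± 0.500). Creb1 (0.680 ± 0.0821) and Pde4b (0.640 ± 0.156) overlapped, and so did Pde4a (0.269 ± 0.102) with Pde4d (0.119 ± 0.0906) and Pde4d with Akap12 (0.102 ± 0.0440). In GalN/LPS livers Akap12 moved from the last place of the 10 to the second by mean FPKM (19.9 ± 10.9), with a range that overlapped both neighbours in the order, Prkar1a and Prkaca. In pretreated livers Adcy9 (1.75), Akap12 (1.14) and Sik1 (1.08) overlapped in mean FPKM order. With dmPGE2 alone Adcy9 (2.75) and Crem (2.57) overlapped, behind Prkar1a and Prkaca.

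Genes with the most similar pattern were sought by Pearson correlation of log2 CPM over the 13 libraries. Only genes with a mean of at least 1 CPM and an established symbol were ranked. Gm, Rik, clone and mitochondrial (mt-) names were left out. The libraries fall into 4 groups, so the coefficients describe mostly the differences between groups and carry no p. For Akap12 they were Pfkp, Pecam1, the endothelial adhesion molecule, and Clic1, each with r = 0.99. For Pde4b they were Ifi47 (0.96), Bcl2l11 (0.95) and Tnfrsf1b (0.95). The closest to Sik1 were Pnrc1 (0.96), Srrt (0.93) and Clk3 (0.92), and the closest to Adcy9 were Rbl2 (0.96), Glyr1 (0.94) and Gfra1 (0.93). Creb1 was most like Ptbp3 (0.96), Ssh2 (0.96) and Rbpj (0.95), and Prkaca most like Tst (0.94), Apof (0.94) and Upp2 (0.93). The first gene for the others was Fndc3b for Pde4d (0.96), Taf7 for Pde4a (0.90), Zfp385a for Prkar1a (0.88) and Apobec1 for Crem (0.86).

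The rest of the pathway was taken from lists of its known components, which held 97 further genes, 75 of them tested. In GalN/LPS against saline livers 33 were higher and 16 lower, beside 27.4% and 25.6% of all genes. In pretreated against GalN/LPS livers 11 were higher, 38 lower and 26 did not pass, with a median log2 fold change of -0.81, beside 24.4% higher, 30.1% lower and a median of -0.10 over all genes. With dmPGE2 alone 0 of the 75 passed by edgeR. Fold changes of these further genes are given with TMM only. With library totals the median over all genes in pretreated against GalN/LPS livers was -0.61, so small rises there may depend on the scaling. Of the prostaglandin E2 receptors, Ptger2 (EP2) and Ptger4 (EP4) were tested, and Ptger1 and Ptger3 had too few counts. Ptger2 rose with GalN/LPS by a log2 fold change of 1.66 ± 0.37 (adjusted p = 0.00133) and fell in pretreated against GalN/LPS livers by 1.21 on that scale (adjusted p = 0.00839). Ptger4 rose by 3.21 ± 0.57 (adjusted p = 0.000189), and the pretreated difference was -1.11 ± 0.46 (adjusted p = 0.0529). Other receptors coupled to the stimulatory G protein were higher in 6 of 9 and lower in 1 of 9 with GalN/LPS, with a median of 2.58, and lower in 6 of 9 after pretreatment, with a median of -1.60. Among them the adenosine receptor Adora2a gave 3.63 and -1.73, while the glucagon receptor Gcgr was higher after pretreatment (0.64 ± 0.14, adjusted p = 0.00124). Adora2b had 0 counts in saline and 134 in GalN/LPS livers. With the saline group set to 3 counts, an allowance for counting noise alone, it was 51.6-fold higher. Replicates differed by more than such noise, so this is not a strict lower limit.

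**Figure D4:**
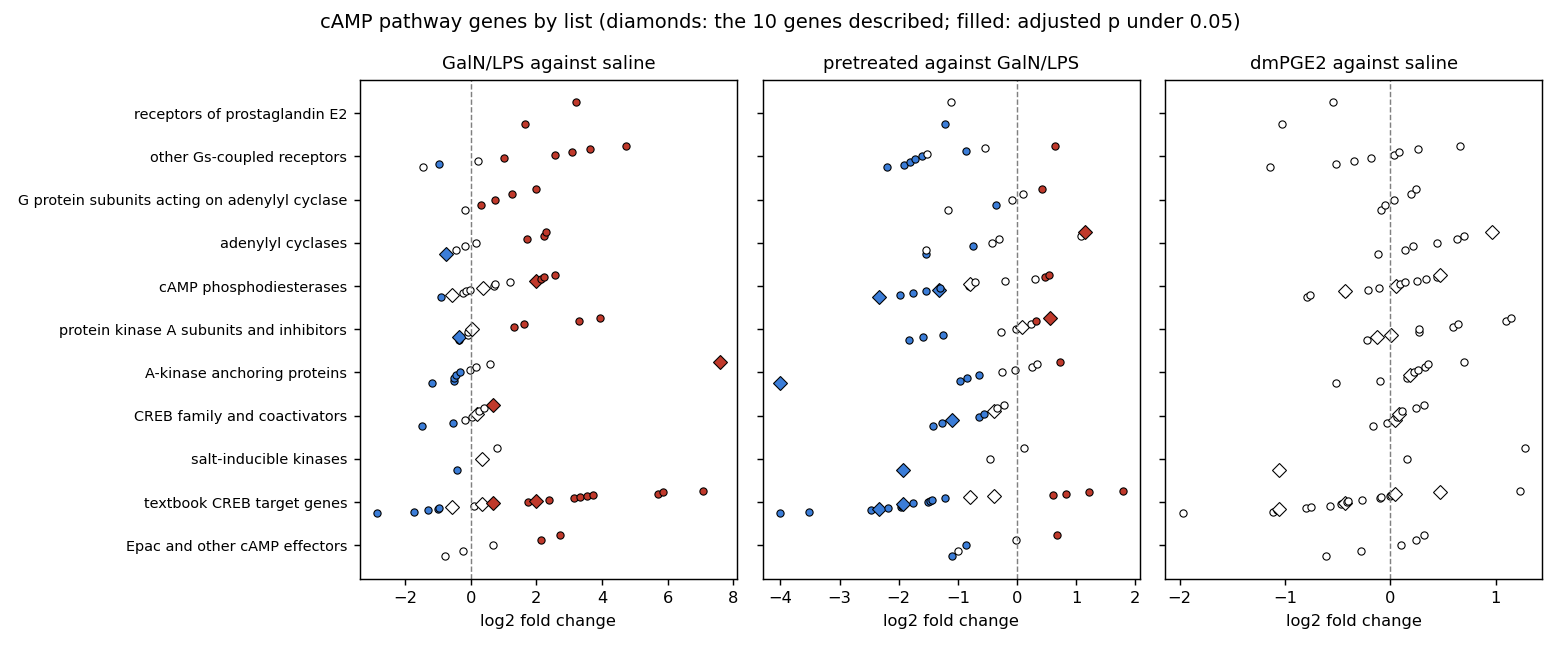
Log2 fold change (x axis) of each tested pathway gene in 3 comparisons, by list (y axis), with diamonds for the 10 genes described and filled symbols for an adjusted p under 0.05 by edgeR. Adora2b is not drawn against saline, where it had 0 counts, and a gene in 2 lists is drawn in both. Filled points lie on both sides of 0 in the first comparison, mostly below 0 in the second, and there are none in the third.

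Enzymes of the core pathway were mixed. Over all genes 27.4% were called higher and 25.6% lower with GalN/LPS. In pretreated against GalN/LPS livers 24.4% were called higher and 30.1% lower. Several counts below lie near those shares, and no list was tested as a set. The stimulatory subunit gene Gnas was higher with GalN/LPS (0.73 ± 0.18, adjusted p = 0.00271). With TMM it was higher again in pretreated against GalN/LPS livers (0.42 ± 0.17, adjusted p = 0.0437). Rises of this size in the lists were not examined with library totals, under which that of Prkaca moved from 0.56 to 0.05. Of 7 adenylyl cyclases, Adcy9 included, 3 were higher and 1 lower with GalN/LPS, and after pretreatment 1 was higher, Adcy9, and 2 were lower. Adcy4, known from endothelium, gave 2.29 ± 0.25 and -1.55 ± 0.22, opposite to Adcy9 in both comparisons. Of 13 cAMP phosphodiesterases 4 were higher and 1 lower with GalN/LPS, and 7 were lower and 2 higher after pretreatment, with a median of -0.81. The 2 that were higher were Pde3b (0.47 ± 0.14, adjusted p = 0.0115), the phosphodiesterase through which insulin lowers cAMP, and Pde8a (0.54 ± 0.12, adjusted p = 0.00212). Of 9 kinase subunits and inhibitors 4 were higher and 2 lower with GalN/LPS, and 3 were lower and 2 higher after pretreatment. The inhibitor gene Pkia gave 3.30 ± 0.54 and -1.59 ± 0.45.

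Among the 9 anchoring proteins Akap12 was the only one called higher with GalN/LPS, and 5 were called lower, among them Akap1, which tethers the kinase to mitochondria (-1.16 ± 0.20, adjusted p = 0.00012). After pretreatment 4 were lower, Akap12 with Akap8 (-0.85 ± 0.13), Akap10 (-0.96 ± 0.23) and Akap13 (-0.63 ± 0.15), and Akap7 was higher (0.73 ± 0.23, adjusted p = 0.0138). Over all genes the shares were 27.4% higher and 25.6% lower with GalN/LPS, and 24.4% higher and 30.1% lower after pretreatment. In the CREB family and its coactivators 5 of 8 were lower and 0 higher after pretreatment. Their median was -0.60, beside -0.10 over all genes. Beside Creb1 these included Crtc3, a coactivator held back by salt-inducible kinases (-1.41 ± 0.19, adjusted p = 5.71e-05), and the acetyltransferases Ep300 (-1.27 ± 0.21, adjusted p = 0.000182) and Crebbp. Of the 3 salt-inducible kinases only Sik1 was called after pretreatment. Sik2 gave -0.46 ± 0.33 there (adjusted p = 0.252), and with dmPGE2 alone 1.28 ± 0.34 (adjusted p = 0.127), beside -1.06 for Sik1.

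Of 19 tested textbook CREB target genes, which include Pde4b, Pde4d, Crem and Sik1, 11 were higher and 5 lower with GalN/LPS, with a median of 1.75, beside 27.4% higher, 25.6% lower and a median of 0.03 over all genes. After pretreatment 13 were lower than with GalN/LPS and 4 higher, with a median of -1.51, beside 30.1% lower, 24.4% higher and a median of -0.10 over all genes. Immediate early targets were among the lower ones: the orphan receptor gene Nr4a1 gave 5.86 ± 0.35 with GalN/LPS and -2.47 ± 0.25 after pretreatment (adjusted p = 6.07e-06). Dusp1, a phosphatase of MAP kinases, gave 3.53 ± 0.33 and -2.18 ± 0.28. The 4 that were higher after pretreatment were Pck1, Tat, G6pc and Ppargc1a. All 5 hepatocyte markers were also higher in that comparison, with a median of 0.715, and all 5 did not pass with GalN/LPS. The part of hepatocyte content or of scaling in these 4 rises was not tested. Pck1, which encodes a rate-limiting gluconeogenic enzyme, gave -0.96 ± 0.18 and 1.22 ± 0.17 (adjusted p = 6.62e-05), and Tat, a tyrosine-degrading aminotransferase, gave -1.003 ± 0.32 and 1.79 ± 0.32 (adjusted p = 0.000354). G6pc, the glucose-releasing phosphatase, gave -2.85 ± 0.17 and 0.61 ± 0.15 (adjusted p = 0.00328). Ppargc1a and Irs2 were named after their values were seen. Ppargc1a, a coactivator of gluconeogenic genes, gave -1.71 ± 0.25 and 0.83 ± 0.25 (adjusted p = 0.0102), whereas Irs2, an insulin receptor substrate also induced in fasting, gave 1.75 ± 0.46 and -1.44 ± 0.42 (adjusted p = 0.0103). With dmPGE2 alone none of the 19 passed by edgeR, and Pck1 gave -1.08 ± 0.18 (adjusted p = 0.0628), against its rise when dmPGE2 preceded GalN/LPS. The difference between these effects of dmPGE2 on Pck1 was 2.30 ± 0.25 (adjusted p = 8.68e-05). Of 5 other cAMP effectors 2 were higher with GalN/LPS and 2 were lower and 1 higher after pretreatment, the last being Rapgef4, an exchange factor opened by cAMP (0.68 ± 0.21, adjusted p = 0.0136).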

How the data were processed

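RNA was measured in 13 mouse liver libraries, made from 1 µg of total RNA each with the NEBNext Ultra RNA kit per the labels. The authors deposited raw read counts per Ensembl gene and FPKM for the same libraries. The submitters' processing notes name HISAT2 and GRCm38/mm10. The strand setting was not given in the sources used here, nor were the read counter and annotation release. Gene coordinates are those of the deposited table. The ALF columns were assigned to GalN/LPS from their group name, with replicates matched by number. The series text speaks of AILI mice, while the labels give D-galactosamine with LPS, which was followed.

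Counts were fitted in edgeR 4.0.16 (R 4.3.3) on a design of the 4 groups, with TMM factors, filterByExpr and the quasi-likelihood F test, adjusted by Benjamini-Hochberg. The 14280 genes kept held 99.9% of counts. CPM and fold changes were computed from the counts, and levels between genes from the deposited FPKM. FPKM denominators lay close to TMM, so the FPKM alternatives are no independent check of scaling. The method was tested on simulated data. Alternatives were library totals, RLE factors, DESeq2 1.42.0, no filter, only the groups compared, the replicate number as a block, limma 3.58.1 on log2(FPKM + 0.1) and log2(FPKM + 1), and each library left out. Promoter windows are RefSeq's. Replicate libraries differed beyond sampling noise, so none was merged. The members and lists were chosen with earlier results of these data known. Named genes were the members, the Ptger genes, the up to 4 genes per list with the smallest p in each of 3 comparisons, and the 3 most similar genes. The marker lists whose ranges are not given above (monocyte, T and NK cell, B cell, cholangiocyte and erythroid) had summed CPM in GalN/LPS livers of 313.7 to 521.1, 23.7 to 29.4, 5.25 to 7.27, 91.9 to 178.1 and 916.8 to 1693, and in saline livers of 36.1 to 58.8, 2.14 to 2.35, 2.16 to 3.35, 44.6 to 68.6 and 221.3 to 598.9.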

Additional observations from a re-analysis of the deposited data

Results flagged for a closer look

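The Akap12 level in pretreated 2, at 19.61 CPM, stood apart from the other 3 pretreated libraries, with a gap to the nearest of 0.889 of the range of the group. Of the 10 gene groups of 4 libraries examined this way, 1 was picked out, and chance picks out about 1 in 20 groups.

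For 5 members the effect of dmPGE2 differed between injured and uninjured livers by the edgeR interaction test, beside 35% of all genes. On the log2 scale the effect in GalN/LPS livers less that in uninjured livers was -4.19 for Akap12, -1.90 for Pde4b, -1.38 for Pde4a, -1.19 for Creb1 and 0.68 for Prkaca. The settings in which the Pde4a and Prkaca differences did not pass are given above. By limma on log2(FPKM + 0.1) without a filter the Creb1 difference was -1.05 (adjusted p = 0.0717).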

How the results depend on the processing

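Over all members, comparisons and alternatives there were 1130 values, of which 1049 kept their direction and side of the threshold, 37 fell short of it, 19 newly passed and 25 changed direction. Where no value is given, the cause was not tested.

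With library totals in place of TMM, genes called in pretreated against GalN/LPS were 616 higher and 6804 lower (3481 and 4299 with TMM), with 1 member higher in place of 2 and 7 lower in place of 5. In pretreated against saline they were 1683 and 6803 (4969 and 4313), with 7 members lower in place of 4, and for the interaction 182 and 5209 (2202 and 2797), with 0 members higher and 7 lower. Log2 fold changes that turned under this scaling were Prkar1a at -0.12 in GalN/LPS against saline, -0.44 in pretreated against GalN/LPS, -0.56 in pretreated against saline and -0.52 for the interaction, Crem at -0.38, Prkaca at -0.48 and Adcy9 at -0.28 in pretreated against saline, and Adcy9 at -0.37 for the interaction. Of these values, edgeR called those of Prkar1a in pretreated against GalN/LPS (adjusted p = 0.0114), pretreated against saline (0.00186) and the interaction (0.046). It also called that of Prkaca in pretreated against saline (adjusted p = 0.00286). The share of called genes that were higher moved from 53.5% to 19.8% in pretreated against saline and from 44% to 3.38% for the interaction.

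In GalN/LPS against saline, 1 member was lower in place of 2 with only the groups compared, with the replicate block and with limma on log2(FPKM + 0.1) without a filter, and 0 to 2 with a library left out. In dmPGE2 against saline, called genes were 137 higher and 140 lower by DESeq2 and 290 and 171 without a filter, each with 1 member higher and 1 lower. By limma they were 1 lower on log2(FPKM + 0.1), 1 and 1 on log2(FPKM + 1), and 6 and 2 on log2(FPKM + 0.1) without a filter. Without GalN/LPS 2 and pretreated 2 together, an alternative chosen after seeing the data, they were 11 and 9. Leaving out 1 library gave 0 to 14 higher and 0 to 14 lower, with 0 to 1 member lower. In pretreated against saline, limma gave 2 members lower in each of its forms, and 0 higher on log2(FPKM + 1), and leaving out 1 library gave 1 to 2 members higher. For the interaction, limma without a filter gave 2 members lower, and leaving out 1 library gave 1370 to 2705 genes higher.

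Other changes of direction were in values that did not pass. Without a filter, Prkar1a was at -0.093 in GalN/LPS against saline and -0.041 in pretreated against saline. With only the groups compared, Prkar1a was at -0.011 in dmPGE2 against saline and -0.030 in pretreated against saline. On log2(FPKM + 1) the Adcy9 interaction was -0.074. With 1 library left out, log2 fold changes in GalN/LPS against saline ran from -0.080 to 0.083 for Prkar1a and from -0.95 to 0.22 for Pde4d. In dmPGE2 against saline they ran from -0.10 to 0.50 for Akap12, -0.23 to 0.25 for Pde4a, -0.054 to 0.14 for Crem, -0.010 to 0.15 for Creb1 and -0.042 to 0.065 for Prkar1a, and the Adcy9 interaction ran from -0.070 to 0.44.

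The replicate numbers are not stated to pair samples. The correlation of deviations between same-numbered libraries was -0.315 to 0.087, and 0 of 12 libraries were most like their own number in every other group. With the replicate block the Pde4a interaction was -1.38 (adjusted p = 0.0635) and Pde4d in pretreated against saline -1.10 (adjusted p = 0.0715). The Prkaca fall with GalN/LPS had an adjusted p of 0.0578 with the block and 0.0601 with only the groups compared. On log2(FPKM + 1) the Akap12 difference in pretreated against saline was 0.83 (adjusted p = 0.0844), a scale that understates low genes. Low counts limit Pde4d and Pde4a, and Akap12 outside GalN/LPS.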
